A study of Mus musculus with 32 samples.

Results

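Expression of 10 genes whose products cut, protect or crosslink the extracellular matrix was followed in mouse liver: 3 tissue inhibitors of metalloproteinases (*Timp1*, *Timp2*, *Timp3*), 4 matrix metalloproteinases (*Mmp2*, *Mmp7*, *Mmp13*, *Mmp14*) and 3 lysyl oxidases (*Lox*, *Loxl1*, *Loxl2*). They were picked by symbol from the 54532 genes of the deposited table, where all 10 were found. These genes and the gene lists below were chosen with earlier results of these data known. Their shares of calls, set beside those of all genes, are therefore descriptions and no independent test. Liver RNA was sequenced from 32 C57BL/6 mice aged 12 weeks, in 8 groups of 4 that combined sex, genotype (WT or *Cyp2c70* KO) and diet (chow or SC-435). *Cyp2c70* KO mice lack the enzyme that makes the muricholic acids of rodent bile, and carry a CRISPR-Cas9 deletion that includes exon 2, bred from a single founder. SC-435, an inhibitor of the ileal bile acid transporter (IBAT), was mixed into chow at 0.006%, about 11 mg per kg per day. The questions were how the genes differed between KO and WT mice on chow, and how SC-435 shifted them in KO and WT mice of each sex.

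Matrix metalloproteinases are zinc enzymes that cleave collagens and other matrix proteins, and TIMPs bind and block their active sites. Lysyl oxidases oxidise lysines of collagen and elastin, which then form the covalent crosslinks that stiffen scar tissue. In injured liver these enzymes and inhibitors come mainly from stellate cells, portal fibroblasts, macrophages and bile duct cells, and their balance bears on whether scar is laid down or resorbed. Since whole liver was sequenced, more cells of one type and more RNA per cell cannot be told apart.

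Levels are given as CPM, the share of a library's reads that fell on a gene, on a common scale set by TMM across the 32 libraries. Library totals ran from 36476021 to 44771350 counts (median 42232543). *Cyp2c70* itself lay between 110 and 187 CPM in the 16 KO mice and between 275 and 851 CPM in the 16 WT mice. One library, male WT chow replicate 1, stood apart, with a TMM factor of 0.639 (0.894 to 1.28 in the others) and a mean correlation of 0.924 with its own group (0.966 to 0.991 in the others). For each test that includes it, the number of the 10 genes called and the number of all genes called are given with and without it.

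Per length of gene, which allows genes to be compared, *Mmp14* and *Timp2* were the most abundant members. In WT females on chow *Mmp14* stood at 11.1 ± 1.74 CPM per kb (SD, n = 4) and *Timp2* at 5.25 ± 0.443, while *Timp1*, *Mmp7*, *Mmp13* and *Lox* each stood at 0.133 or less. On chow, the 3 scarce genes *Timp1*, *Mmp7* and *Mmp13* had 0 to 15 counts in any WT mouse of either sex. A gene entered a test only if at least 4 libraries reached the minimum level of edgeR's filter on low counts. In the chow-fed females *Timp1*, *Mmp7* and *Mmp13* reached it in 0 or 1 of the WT mice and *Lox* in 3. In the chow-fed males *Timp1*, *Mmp13* and *Lox* reached it in 0, 1 and 2 of the WT mice, and *Mmp7* was not tested. These genes entered the tests through the group in which they were high, *Mmp7* in females with 3 KO mice and 1 WT mouse. A difference was thus built into their being tested, and their fitted differences rest on few counts in the other group. The count of calls among genes at the minimum in every library is therefore given beside the main counts.

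**Figure D1:**
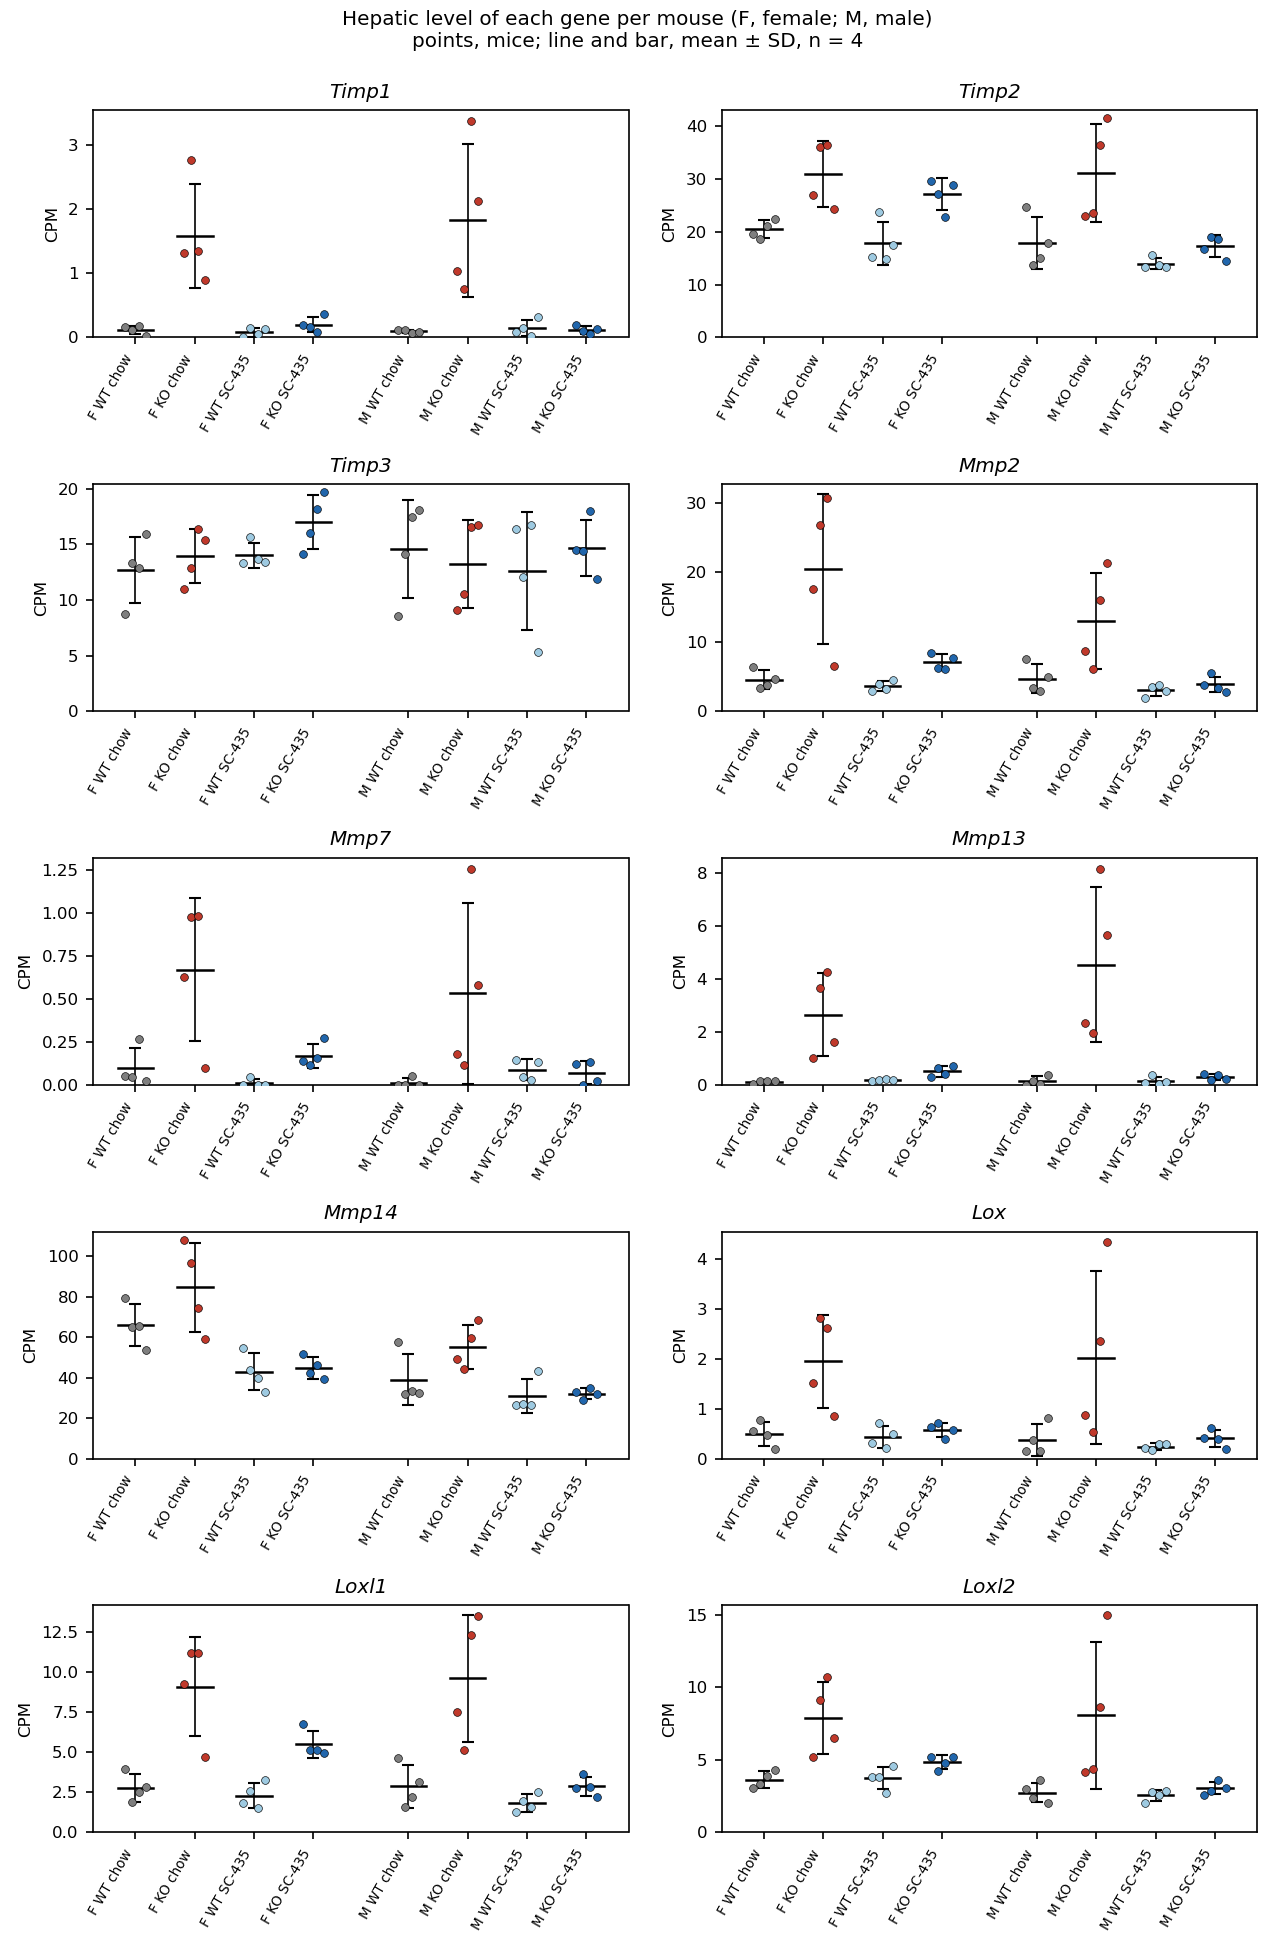
Level of each of the 10 genes in CPM (vertical axis, linear from 0, own scale per gene) in every mouse of the 8 groups, with group mean and SD (n = 4). The KO chow mice sit highest for most genes, while *Timp3* shows no such separation and *Mmp14* in WT females on chow (53.8 to 79.2 CPM) overlaps the KO chow range (59.3 to 108 CPM).

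In females on chow, 7 of the 10 genes were called higher in KO than in WT mice: *Timp1*, *Mmp2*, *Mmp7*, *Mmp13*, *Lox*, *Loxl1* and *Loxl2*. A call required an adjusted p under 0.05 (edgeR's quasi-likelihood fit, adjusted by Benjamini-Hochberg across every gene tested) and a log2 difference beyond 1, which 5.67% of all genes met in the higher direction. *Timp2* made 8 on adjusted p alone, which 9.83% of all genes met. The median log2 difference was 1.86 over the 10 genes and -0.02 over all genes tested. Among the 6 genes at the filter's minimum in all 8 mice, 3 were called (*Mmp2*, *Loxl1* and *Loxl2*). In 7 of the 10 every KO mouse exceeded every WT mouse, against 11.1% of all genes. Of these 7 only *Timp2*, *Mmp2*, *Loxl1* and *Loxl2* were at the filter's minimum in all 8 mice.

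Among the inhibitors, *Timp1*, the member of the family induced in inflamed and fibrotic liver, moved most. *Timp1* was at 1.31, 2.76, 1.34 and 0.900 CPM in the KO females on chow and at 0.157, 0.118, 0.172 and 0.0239 CPM in the WT females on chow. The groups did not overlap, and the highest KO mouse was replicate 2. The log2 difference was 3.75 (SE 0.51, adjusted p = 0.0023). *Timp2*, which blocks metalloproteinases and also helps *Mmp14* to activate the *Mmp2* proenzyme, was at 26.9, 36, 36.5 and 24.3 CPM in KO against 19.6, 18.6, 21.2 and 22.5 CPM in WT females. These groups did not overlap either, though the log2 difference of 0.62 (SE 0.14, adjusted p = 0.0185) stayed under the threshold of 1. *Timp3*, an inhibitor held in the matrix, ranged from 11.0 to 16.4 CPM in KO and from 8.77 to 15.9 CPM in WT females, with a log2 difference of 0.15 (SE 0.19, adjusted p = 0.629). Its nominal 95% interval ran from -0.22 to 0.51.

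*Timp1* lies on chromosome X of GRCm38 from 20870166 to 20874735, within *Syn1* on the opposite strand, and *Timp3* lies within *Syn3* on chromosome 10. *Timp1* shares 0 exonic bases with *Syn1*, whereas *Timp3* shares 1733 of its 8144 exonic bases with *Syn3*. Whether the counting used strand was not given in the sources used here, so reads in that stretch cannot be assigned with certainty. *Syn3* had 31 to 78 counts per library against 198 to 948 for *Timp3*, and *Syn1* had 8 to 78 against 0 to 171 for *Timp1*. In female KO mice *Syn1* itself was lower with SC-435 by the adjusted p (log2 difference -0.86, SE 0.24, adjusted p = 0.0319).

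Of the proteases, *Mmp13* showed the widest gap. *Mmp13*, the main interstitial collagenase of the mouse, was at 1.03, 3.68, 4.28 and 1.63 CPM in the KO females on chow and at 0.0525, 0.165, 0.147 and 0.143 CPM in the WT females. All 4 KO mice exceeded all 4 WT mice, with a log2 difference of 4.37 (SE 0.55, adjusted p = 0.00191). *Mmp2*, a gelatinase made by stromal cells, was at 17.6, 26.9, 30.8 and 6.49 CPM against 6.40, 3.31, 3.71 and 4.70 CPM. KO replicate 4 stood just above the highest WT mouse, and the log2 difference was 2.20 (SE 0.42, adjusted p = 0.00823). *Mmp7*, an epithelial protease also called matrilysin, was at 0.628, 0.978, 0.982 and 0.0973 CPM against 0.0525, 0.0472, 0.270 and 0.0239 CPM. Here the groups overlapped, since KO replicate 4 lay below WT replicate 3. The log2 difference was 2.78 (SE 0.78, adjusted p = 0.0382), and the call was lost on leaving out any of 6 single libraries (adjusted p 0.0644 to 0.103). *Mmp14*, a membrane-bound protease, was at 59.3 to 108 CPM in KO and 53.8 to 79.2 CPM in WT females and was not called (log2 difference 0.38, SE 0.19, adjusted p = 0.196).

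Promoter sequences of RefSeq (GRCm38.p6, 250 bases before to 50 after the start) were held for 6 of the 10 genes. They are shown for the inhibitor and the proteases at the lowest levels in WT mice. An entry of *Mmp7* was shown only if it held the heptamer named below, so its presence there was a condition of display. The 90 bases before the start are given 5′ to 3′ in lower case, with the heptamer TGACTCA (read on either strand, so also TGAGTCA), to which AP-1 factors are known to bind, and the TATA motif TATAAA in capitals.
*Mmp13*, chr9:7272424-7272513, plus strand: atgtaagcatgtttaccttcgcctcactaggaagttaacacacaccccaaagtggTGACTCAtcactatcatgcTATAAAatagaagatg
*Mmp7*, chr9:7692000-7692089, plus strand: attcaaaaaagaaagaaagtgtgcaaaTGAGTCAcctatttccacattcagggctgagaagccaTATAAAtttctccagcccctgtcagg
*Timp1*, chrX:20870076-20870165, plus strand: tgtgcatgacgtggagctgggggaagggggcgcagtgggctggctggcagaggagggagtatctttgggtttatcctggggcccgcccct
The heptamer began 35 bases before the start in *Mmp13* and 63 bases before it in *Mmp7*, and occurred in 2 of the 6 genes with an entry. Of 32851 promoters of the same length, 5.2% held it on either strand and 13.6% held TATAAA. Only these exact letters were searched, so other forms of an AP-1 site were not looked for in *Timp1* or any other gene. These letters are descriptions of the windows, and factor binding was not measured.

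All 3 lysyl oxidases rose. *Lox*, the founding crosslinking enzyme, was at 1.52, 2.82, 2.61 and 0.851 CPM in KO and at 0.551, 0.780, 0.467 and 0.191 CPM in WT females on chow. *Loxl1*, best known for its part in elastic fibres, was at 9.29, 11.2, 11.2 and 4.69 CPM against 3.94, 1.87, 2.51 and 2.86 CPM. *Loxl2*, which acts on type IV and fibrillar collagens, was at 5.18, 9.09, 10.7 and 6.49 CPM against 3.04, 3.33, 3.88 and 4.30 CPM. No group pair overlapped, and KO replicate 4 was the lowest KO mouse for *Lox* and *Loxl1*. The log2 differences were 2 (SE 0.46, adjusted p = 0.0182), 1.73 (SE 0.30, adjusted p = 0.00596) and 1.14 (SE 0.23, adjusted p = 0.0103). Leaving out KO replicate 3 ended the calls of *Lox* (adjusted p = 0.0501), *Loxl2* (log2 difference 0.96) and *Mmp7* and left 4 genes called. Leaving out KO replicate 2 ended that of *Lox* as well (adjusted p = 0.0589).

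In males on chow, 2 of the 9 genes tested were called higher in KO than in WT mice, *Timp1* and *Mmp13*, where 0.914% of all genes (145) were called higher. Without male WT chow replicate 1 that number of all genes was 522. Neither called gene reached the filter's minimum in all WT males, and of the 6 that did so in all 8 mice, 0 were called. *Timp1* was at 1.03, 0.759, 3.37 and 2.13 CPM in KO and at 0.114, 0.110, 0.0751 and 0.0773 CPM in WT males, without overlap (log2 difference 4.32, SE 0.60, adjusted p = 0.0192). *Mmp13* was at 2.36, 1.98, 8.18 and 5.66 CPM in KO and at 0, 0.164, 0.05 and 0.386 CPM in WT males (log2 difference 4.89, SE 0.87, adjusted p = 0.0412). Replicates 3 and 4 were the high KO males for both genes. *Loxl1* (log2 difference 1.80, SE 0.43, adjusted p = 0.0911) and *Loxl2* (log2 difference 1.61, SE 0.45, adjusted p = 0.132) did not overlap between groups but were not called. With *Timp1* and *Mmp13*, every KO male thus exceeded every WT male in 4 of the 9 genes tested, against 7.71% of all genes. Of these 4 only *Loxl1* and *Loxl2* were at the filter's minimum in all 8 mice. *Lox* and *Mmp2* overlapped, with log2 differences of 2.46 (SE 0.80, adjusted p = 0.186) and 1.55 (SE 0.46, adjusted p = 0.152). *Mmp7* was not tested in males, with 5 to 64 counts in KO and 0 to 2 counts in WT mice.

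The male count depended on single libraries and on the model. Without male WT chow replicate 1, the library that stood apart, 5 genes were called, with *Timp2* (adjusted p = 0.0395), *Mmp2* (adjusted p = 0.0467) and *Loxl1* (adjusted p = 0.0253) added. Without WT replicate 2, 3 or 4 or KO replicate 4, 0 were called, and without KO replicate 1 or 3, 1 was called. With DESeq2 6 were called, with *Mmp2*, *Lox*, *Loxl1* and *Loxl2* added (adjusted p 0.00415 to 0.0393). A test of the difference between the sexes, fitted as an interaction on 16 libraries, passed for 0 of 10 genes, as it did for 0.0235% of all genes. By the unadjusted p 0 passed, and DESeq2 also called 0. Without male WT chow replicate 1 it passed for 0 of the 10 as well, and for 75 of all genes in place of 4.

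**Figure D2:**
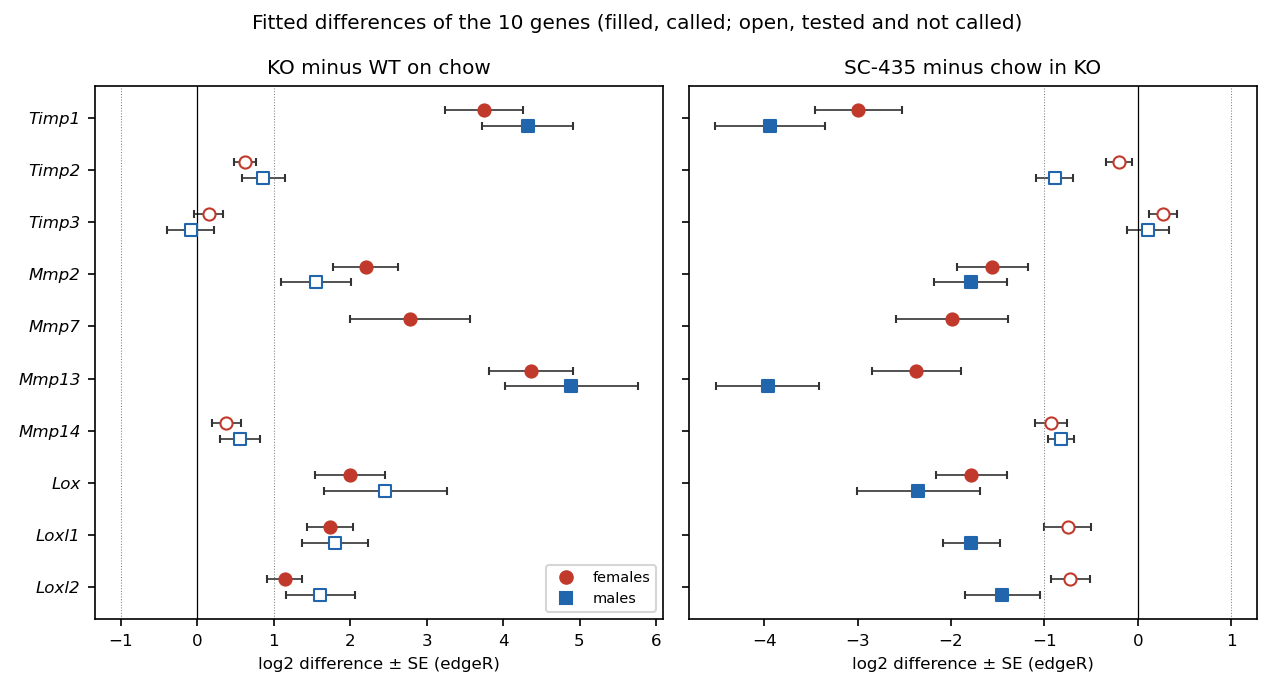
Fitted log2 difference of each gene with its SE (horizontal axis) for KO minus WT on chow and for SC-435 minus chow in KO mice, females as circles and males as squares, with called genes filled and dotted lines at a log2 difference of 1 and -1. On chow *Timp1* and *Mmp13* lie farthest to the right in both sexes (3.75 and 4.37 in females), and *Timp3* lies near 0 in both panels.

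In female KO mice, SC-435 lowered 5 of the 10 genes past both thresholds: *Timp1*, *Mmp2*, *Mmp7*, *Mmp13* and *Lox*. Of all genes, 3.7% were called lower. *Timp1* and *Mmp7* each reached the filter's minimum in 1 of the SC-435 mice, and in 4 and 3 of the chow mice. *Timp1* thus entered the test through the chow mice and *Mmp7* mainly through them, so their being lower was built into the test. Among the other 8 genes, which reached it in all 8 mice, 3 were called lower (*Mmp2*, *Mmp13* and *Lox*). On adjusted p alone the count was 7 with *Mmp14* and *Loxl2*, against 9.23% of all genes. The median log2 difference was -1.24 over the 10 genes and -0.02 over all genes.

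*Timp1* was at 0.188, 0.161, 0.0772 and 0.363 CPM in KO females on SC-435, all below the KO females on chow given above (log2 difference -2.99, SE 0.47, adjusted p = 0.00447). *Mmp13* was at 0.282, 0.646, 0.412 and 0.727 CPM, again without overlap (log2 difference -2.37, SE 0.48, adjusted p = 0.0106). *Lox* was at 0.634, 0.715, 0.386 and 0.568 CPM, also all lower (log2 difference -1.78, SE 0.38, adjusted p = 0.0129). All 3 had their 4 SC-435 mice below the lowest chow mouse, as did *Mmp14*. That made 4 of the 10 genes, against 10% of all genes. Of these 4 all but *Timp1* were at the filter's minimum in every mouse compared. *Mmp2* was at 8.33, 6.18, 6.02 and 7.70 CPM on SC-435, which overlapped chow replicate 4 (log2 difference -1.56, SE 0.38, adjusted p = 0.0217). *Mmp7* was at 0.141, 0.115, 0.154 and 0.273 CPM and overlapped that same mouse (log2 difference -1.99, SE 0.60, adjusted p = 0.0455). *Mmp14* was at 51.7, 42.4, 46.5 and 39.2 CPM, all below the chow KO females, by a log2 difference of -0.93 (SE 0.17, adjusted p = 0.00794). *Timp2* fell by only 0.20 (adjusted p = 0.342) and was not called. *Loxl1* was at 6.76, 5.12, 5.15 and 4.95 CPM (log2 difference -0.75, SE 0.25, adjusted p = 0.0626).

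Some female calls depended on single libraries. The *Mmp7* call was lost on leaving out any of 7 single libraries (adjusted p 0.0559 to 0.126), and the *Mmp2* call on leaving out any of 5 (adjusted p 0.0507 to 0.0713). Leaving out chow KO replicate 2 or 3, or SC-435 KO replicate 1, 2 or 3, left 3 genes called.

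In male KO mice, SC-435 lowered 6 of the 9 genes tested: *Timp1*, *Mmp2*, *Mmp13*, *Lox*, *Loxl1* and *Loxl2*. *Timp1*, *Mmp13* and *Lox* reached the filter's minimum in 0, 2 and 3 of the SC-435 males and entered the test through the chow males, so their being lower was built into the test. Among the 6 genes that reached it in all 8 mice, 3 were called lower (*Mmp2*, *Loxl1* and *Loxl2*). In all, 4.57% of genes were called lower, and 8 of the 9 passed on adjusted p alone against 8.36% of all genes. The median log2 difference was -1.78 over the 9 genes and -0.03 over all genes.

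*Timp1* was at 0.197, 0.0978, 0.0539 and 0.125 CPM in the KO males on SC-435 (log2 difference -3.94, SE 0.59, adjusted p = 0.00432). *Mmp13* was at 0.418, 0.171, 0.377 and 0.226 CPM (log2 difference -3.96, SE 0.55, adjusted p = 0.00301). *Loxl1* was at 2.75, 3.64, 2.85 and 2.23 CPM (log2 difference -1.78, SE 0.31, adjusted p = 0.00817). For these 3 genes, and for *Timp2*, *Mmp2*, *Mmp14* and *Loxl2*, every SC-435 male lay below every chow KO male. That made 7 of the 9 genes tested, against 11% of all genes. Of these 7 all but *Timp1* and *Mmp13* were at the filter's minimum in every mouse compared. *Mmp2* was at 3.81, 5.45, 3.37 and 2.78 CPM (log2 difference -1.79, SE 0.39, adjusted p = 0.0182). *Lox* was at 0.418, 0.611, 0.404 and 0.200 CPM, and its highest SC-435 mouse lay above the lowest chow mouse (log2 difference -2.35, SE 0.66, adjusted p = 0.0392). *Loxl2* was at 2.61, 2.86, 3.61 and 3.08 CPM (log2 difference -1.45, SE 0.40, adjusted p = 0.0371). *Timp2* (log2 difference -0.89, SE 0.20, adjusted p = 0.0201) and *Mmp14* (log2 difference -0.82, SE 0.14, adjusted p = 0.00749) fell by less than the threshold. *Timp3* showed a log2 difference of 0.11 (adjusted p = 0.739).

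The male calls of *Lox* and *Loxl2* were lost on leaving out chow KO replicate 3 or 4 or any of the 4 SC-435 KO males (adjusted p 0.062 to 0.108 for *Lox*, and a log2 difference of -0.95 for *Loxl2* without chow replicate 4). For *Mmp2* the call was lost without chow KO replicate 3 or SC-435 KO replicate 1, 3 or 4 (adjusted p 0.0505 to 0.061). A test of the difference between the sexes passed for 0 of 10 genes (0.211% of all genes), with 2 passing by the unadjusted p and 0 by DESeq2. Those passing by the unadjusted p were *Timp2* (interaction 0.67, SE 0.26, adjusted p = 0.293) and *Loxl1* (1.01, SE 0.42, adjusted p = 0.32). *Mmp13* did not pass either way (1.57, SE 0.77, adjusted p = 0.421).

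In WT mice, SC-435 gave no call for any of the 7 genes tested in either sex, where 1.1% of all genes were called in females and 0.0394% in males. By edgeR's unadjusted p, 1 gene passed in females and 0 in males, and with DESeq2 1 passed on adjusted p in females and 0 in males, none of them past both thresholds. The female gene by edgeR was *Mmp14*, at 54.9, 44.0, 39.7 and 33.1 CPM on SC-435 and 79.2, 65.3, 65.8 and 53.8 CPM on chow (log2 difference -0.61, SE 0.16, adjusted p = 0.0576). *Timp1*, *Mmp7* and *Mmp13* were too low to test in WT mice, with at most 16 counts per library. *Timp2* in WT females differed by -0.19 on the log2 scale, with a nominal interval from -0.48 to 0.10. Without male WT chow replicate 1 the count in WT males was also 0 for the 7 genes, while over all genes 2 higher and 4 lower became 105 and 55.

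Whether SC-435 acted differently in KO and WT mice was tested as an interaction of genotype and diet. In females it passed for *Mmp13* (log2 difference -2.85, SE 0.72, adjusted p = 0.0455), 1 of 10 genes, with 2.64% of all genes passing. *Mmp13* reached the filter's minimum in 0 of the 8 WT females and was too low to test there on its own, so this difference rests on few WT counts and on a gene that entered the fit through the KO mice. Of the 6 genes at the minimum in all 16 females, 0 passed. The *Mmp13* call held without female KO chow replicate 1 or 4, or SC-435 replicate 4 of the KO females, and was lost without any of the other 13 female libraries (adjusted p 0.0636 to 0.0964). Without KO chow replicate 4, *Mmp2* passed too (log2 difference -1.55, adjusted p = 0.00574). In males 0 of 9 genes passed, against 0.0906% of all genes (15, and 118 without male WT chow replicate 1), with 5 passing by the unadjusted p and 2 by DESeq2 (*Timp1* and *Mmp13*). *Timp1* came closest (log2 difference -4.58, SE 0.93, adjusted p = 0.0754), and it passed without male WT chow replicate 1 (adjusted p = 0.0481) or male KO chow replicate 2 (adjusted p = 0.0476).

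KO and WT mice both given SC-435 were also compared, which shows what difference remained. In females, 2 of 8 genes tested were called, both higher in KO, where 2.56% of all genes were called in either direction. Among the 6 genes at the filter's minimum in every mouse compared, 1 was called (*Loxl1*). *Loxl1* was at 6.76, 5.12, 5.15 and 4.95 CPM in KO and 1.81, 2.61, 1.52 and 3.26 CPM in WT females (log2 difference 1.26, SE 0.22, adjusted p = 0.0082). *Mmp13* had a log2 difference of 1.53 (SE 0.37, adjusted p = 0.0266), which was lost without any of 5 single libraries (adjusted p 0.0562 to 0.0809), and it reached the filter's minimum in 0 of the 4 WT females on SC-435. *Mmp2* (log2 difference 0.97, SE 0.17, adjusted p = 0.00703) and *Timp2* (log2 difference 0.61, SE 0.14, adjusted p = 0.025) passed on adjusted p alone, as 6.23% of all genes did in the higher direction. In males 0 of 7 genes were called, where 0.0259% of all genes were, with 2 passing by the unadjusted p and 0 by DESeq2. The male *Loxl1* difference was 0.64 (SE 0.24, adjusted p = 0.472).

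Summed by class on the length-scaled values, the proteases stood at 21.9 ± 6.30 CPM per kb (SD, n = 4) in KO and 12.6 ± 1.98 in WT females on chow, and at 9.99 ± 0.971 in KO females on SC-435. The inhibitors stood at 11.4 ± 2.34, 6.95 ± 0.667 and 9.29 ± 0.854 CPM per kb in the same order, and the lysyl oxidases at 4.62 ± 1.45, 1.62 ± 0.222 and 2.68 ± 0.307. Thus the ratio of summed inhibitors to summed proteases was 0.546 ± 0.134 in KO and 0.569 ± 0.134 in WT females on chow, with overlapping ranges. It was 0.936 ± 0.125 in KO and 0.781 ± 0.182 in WT females on SC-435. In KO females the SC-435 range (0.830 to 1.09) lay above the chow range (0.401 to 0.727). In KO males the ratio was 0.762 ± 0.0573 on chow and 0.945 ± 0.0857 on SC-435, again without overlap (0.692 to 0.816 against 0.844 to 1.04). In WT males the ratio was 0.845 ± 0.153 on chow and 0.896 ± 0.246 on SC-435. Those ranges were wide and overlapped (0.634 to 0.977 and 0.532 to 1.07). These ratios are of mRNA and were not tested.

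**Figure D3:**
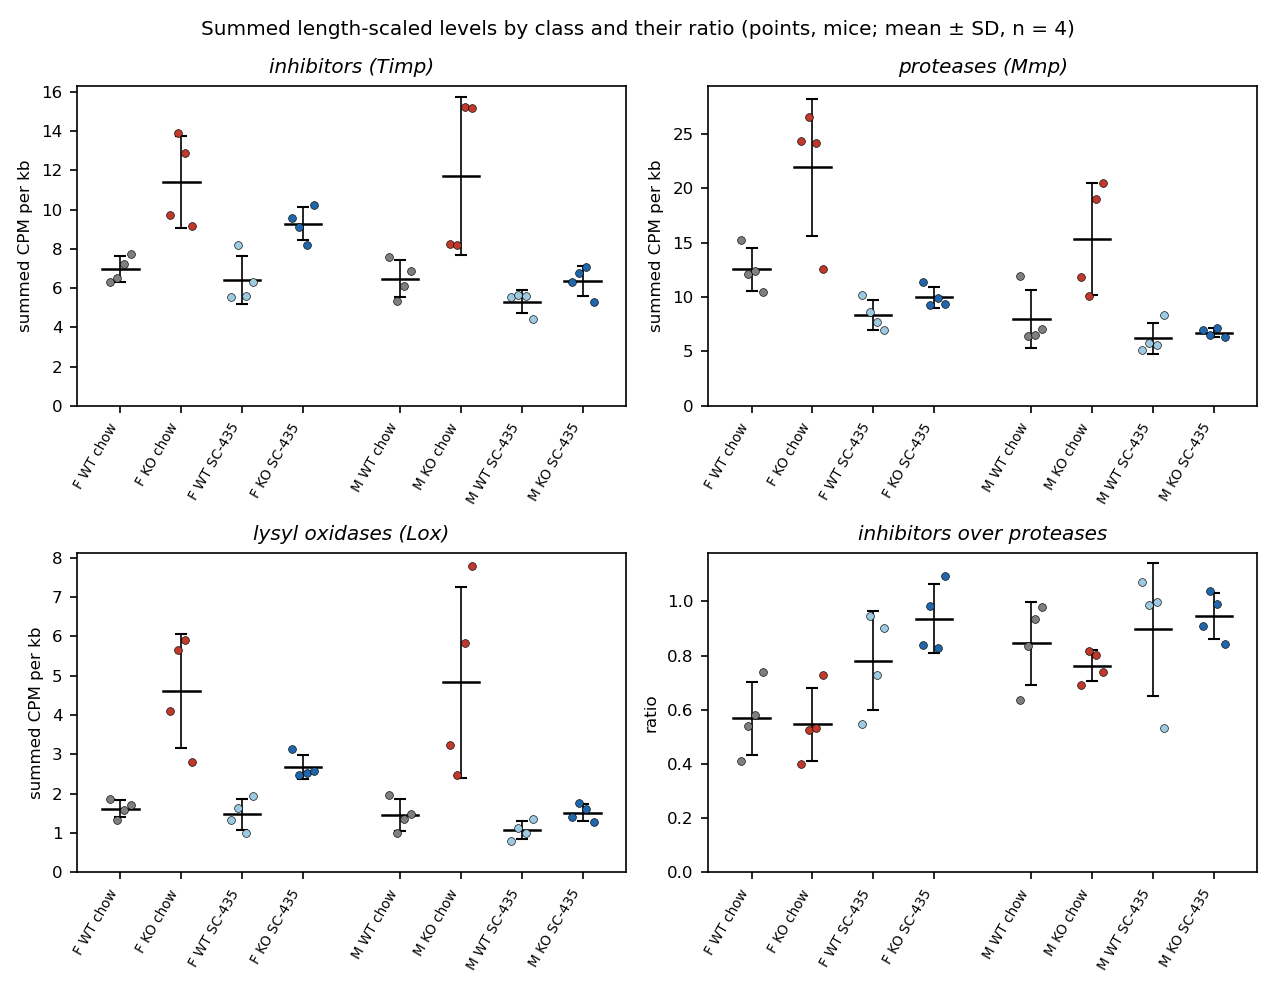
Summed CPM per kb of the inhibitors, proteases and lysyl oxidases, and the ratio of inhibitors to proteases, in each mouse of the 8 groups with mean and SD (n = 4). All 3 sums are highest in the KO chow groups (proteases 21.9 in females), while the ratio in KO females lies higher on SC-435 (0.936) than on chow (0.546).

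The composition of the classes shifted as well. *Timp1* made up 15.1% ± 5.17 (SD, n = 4) of the summed inhibitors in KO females on chow and 1.97% ± 1.14 in WT females, and *Timp2* held 69.6% and 75.7%. *Mmp14* held 66.7% ± 12.5 of the summed proteases in KO and 88.2% ± 2.16 in WT females on chow, while *Mmp2* held 26.2% ± 9.82 and 10.7% ± 2.57. In males on chow *Mmp13* held 10.3% ± 4.12 of the proteases in KO and 0.825% ± 0.912 in WT mice. *Loxl1* was by mean share the largest lysyl oxidase in both KO (59.2% ± 7.48) and WT females on chow (51.3% ± 9.13).

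Within the KO chow groups, some mice stood low or high for many of the genes at once. Female replicate 4 was the lowest of its group for 7 of the 10 genes, male replicate 2 the lowest for 7 and male replicate 4 the highest for 7. Over all 32 mice, the 36 pairs that leave out *Timp3* had Pearson correlations from 0.45 to 0.95 on log2(CPM + 0.1), and from -0.16 (*Mmp13* and *Mmp14*) to 0.88 after the means of all 8 groups were removed. The pair *Mmp2* and *Loxl1* was the closest in both (0.95 and 0.88). The 9 pairs with *Timp3* ran from -0.24 to 0.21, and from -0.53 to 0.44 after the group means were removed. These values share the libraries and the group differences and are descriptions.

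In females on chow, summed markers of macrophages, cholangiocytes and neutrophils were higher in every KO mouse than in any WT mouse. The summed hepatocyte markers were lower in every KO mouse than in any WT mouse, and the sums of the other cell types overlapped. The part of these cells in the results was not tested. Counts of markers called higher stand beside 5.67% of all genes called higher in KO females on chow and 0.914% in KO males on chow. The 14 macrophage markers summed to 666 to 1000 CPM in KO and 401 to 481 CPM in WT females on chow, and to 331 to 514 CPM in KO females on SC-435, and 8 of 14 were called higher in KO on chow. The 12 cholangiocyte markers summed to 201 to 406, 71.8 to 105 and 139 to 189 CPM in that order, with 7 of 11 tested called higher. Male KO chow replicate 4, the highest for 7 genes, had 1210 CPM of cholangiocyte and 1460 CPM of macrophage markers, where the other 3 had 182 to 525 and 377 to 558 CPM. Of its cholangiocyte sum 1120 CPM was *Spp1*, which macrophages also express, and the 11 other markers summed to 87.2 CPM there against 58.7 to 81.6 CPM in the other 3. In females on chow those 11 summed to 84.4 to 154 CPM in KO and 44.2 to 49.6 CPM in WT mice. In WT males on chow the full cholangiocyte and macrophage sums were 51.9 to 63.9 and 302 to 485 CPM. The macrophage sums thus overlapped between male KO and WT mice, and the cholangiocyte sums did not. In males on chow 4 of 11 tested cholangiocyte and 2 of 14 macrophage markers were called higher in KO. The 14 stellate cell and myofibroblast markers summed to 345 to 582 CPM in KO and 299 to 406 CPM in WT females on chow, with 2 of 14 called higher. The 10 endothelial markers summed to 363 to 480 and 414 to 479 CPM, with 0 of 10 called. The 8 hepatocyte markers summed to 61400 to 84400 CPM in KO and 102000 to 127000 CPM in WT females on chow. Of these 8, 1 was called lower in KO females, where 163 of 16205 genes were called lower. The most abundant of the 8 had a median of 58400 CPM over the 32 mice, so it weighs most in the sum. In males on chow the sums overlapped (56500 to 88300 CPM in KO, 86400 to 191000 CPM in WT). Neutrophil markers summed to 5.37 to 12.1 CPM in KO and 2.98 to 4.18 CPM in WT females, and of the 10 only 3 were high enough to test, all of them called higher. In males on chow they summed to 5.48 to 14.7 CPM in KO and 2.17 to 3.63 CPM in WT mice, with 0 of 3 tested called higher. The neutrophil markers *Ly6g* and *Mpo* each had a median of 0 CPM over the 32 mice. The 7 mesothelial markers summed to 5.40 to 16.1 CPM in KO and 6.92 to 10.9 CPM in WT females on chow. The 9 T cell markers summed to 3.65 to 8.53 and 2.70 to 5.09 CPM in that order. In males on chow both sums overlapped between genotypes.

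Genes of the same pathways were counted beside the 10. Among 18 other metalloproteinases and inhibitors, 10 were tested in females on chow, with 2 called higher in KO mice, where 5.67% of all genes were called higher in this comparison. *Mmp12*, the elastase of macrophages, was at 13.4 ± 10.5 CPM (SD, n = 4) in KO and 0.308 ± 0.0793 CPM in WT females (log2 difference 5.45, SE 0.54, adjusted p = 0.00131), and SC-435 lowered it in KO females by a log2 difference of -4.44 (SE 0.50, adjusted p = 0.00138). *Mmp27* was the other (log2 difference 1.96, SE 0.25, adjusted p = 0.00189), and *Mmp15*, a membrane-type protease, passed on adjusted p alone (log2 difference 0.76, SE 0.16, adjusted p = 0.0121). Of 20 tested ADAM and ADAMTS genes 5 were called higher, among them *Adamts2*, which trims procollagen (log2 difference 1.30, SE 0.22, adjusted p = 0.00496), *Adamts4* (1.40, SE 0.25, adjusted p = 0.00662) and *Adamtsl2* (1, SE 0.16, adjusted p = 0.00384). In the plasminogen system 2 of 9 were called higher, with *Plat*, the tissue plasminogen activator, at a log2 difference of 2.74 (SE 0.33, adjusted p = 0.00174). *Plaur*, the urokinase receptor, was the other (1.21, SE 0.33, adjusted p = 0.0352), and *Plau*, urokinase, passed on adjusted p alone (0.91, SE 0.24, adjusted p = 0.0302).

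Of 12 cathepsin list genes 2 were called higher, *Ctss* (log2 difference 1.31, SE 0.21, adjusted p = 0.00407) and *Ctsk*, a collagen-cleaving protease (1.37, SE 0.40, adjusted p = 0.0463), while *Ctsb* had a difference of 0.38 (SE 0.12, adjusted p = 0.0596). Of the 18 matrix substrates 10 were called higher, led by *Col6a3* (1.92, SE 0.20, adjusted p = 0.00144), *Col1a1* (2.60, SE 0.35, adjusted p = 0.00216) and *Fbn1* (1.37, SE 0.21, adjusted p = 0.00313). Of 17 collagen processing genes 0 were called higher and 1 lower, *P4ha2*, a prolyl hydroxylase subunit (-1.22, SE 0.18, adjusted p = 0.00292). Of those, the collagen chaperone *Serpinh1* (0.97, SE 0.20, adjusted p = 0.0103) and the transglutaminase *Tgm2* (0.44, SE 0.12, adjusted p = 0.029) passed on adjusted p alone. In TGF-beta signalling 4 of 16 were called higher, with *Tgfbr2* (1.06, SE 0.13, adjusted p = 0.00168) and *Thbs1* (1.86, SE 0.35, adjusted p = 0.00757), whereas *Smad3* passed on adjusted p alone (0.54, SE 0.10, adjusted p = 0.00777). The list medians were 0.59 for other metalloproteinases and inhibitors, 0.88 for ADAM and ADAMTS, 0.19 for the plasminogen system, 0.17 for cathepsins, 0.27 for collagen processing, 1.04 for substrates and 0.55 for TGF-beta signalling, beside -0.02 for all genes. In males on chow these lists gave 1 of 10, 1 of 19, 0 of 9, 0 of 12, 0 of 17, 1 of 18 and 1 of 16 genes called higher in KO in that order. There 0.914% of all genes were called higher. The male medians were 0.42, 1.10, 0.92, -0.05, 0.42, 1.23 and 0.99, beside 0.04 for all genes.

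With SC-435 in KO females, the same lists gave 3 of 11, 2 of 20, 2 of 9, 2 of 12, 0 of 17, 5 of 18 and 2 of 16 genes called lower in that order, where 3.7% of all genes were. In KO males they gave 4 of 10, 9 of 19, 4 of 9, 1 of 12, 5 of 17, 13 of 18 and 5 of 16, where 4.57% of all genes were called lower. The substrates thus held the most calls in males, where their median log2 difference was -1.47 against -0.03 over all genes. *Col1a1* was at 98.3 ± 88.3 CPM (SD, n = 4) in KO males on chow and 12.3 ± 4.41 CPM on SC-435 (log2 difference -3.04, SE 0.65, adjusted p = 0.0169).

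The genes whose levels ran most like each member over the 32 mice were sought among 11894 protein-coding genes averaging 1 CPM or more, by Pearson's r on log2(CPM + 0.1). *Timp1* ran closest to *Trem2* (0.953), *Sprr1a* (0.940) and *Capg* (0.935), and *Mmp13* to *Emp1* (0.931), *Spp1* (0.926) and *Itgax* (0.919). *Mmp2* ran closest to *Cpxm1* (0.967), *Adamts2* (0.960) and *Olfml3* (0.958), and *Loxl1* to *Mrc2* (0.960), *Olfml3* (0.959) and *Col1a1* (0.958). *Timp2* ran closest to *Cbx6* (0.955), *Ltbp3* (0.954) and *Efemp2* (0.949), *Lox* to *Ccdc80* (0.919), *Slc25a24* (0.914) and *Col3a1* (0.914), and *Loxl2* to *Col5a1* (0.927), *Rab31* (0.922) and *Nid1* (0.919). *Mmp7* had *Ddr1* (0.887), *Rasal1* (0.880) and *Ccdc120* (0.873), *Mmp14* had *AW011738* (0.874), *Ephb6* (0.874) and *Rad51b* (0.872), and *Timp3* had *She* (0.743), *Hivep1* (0.733) and *Zfp366* (0.716). *Timp3* had the lowest of the leading correlations. The group means were not removed here, so these values share the group differences and are descriptions. *Timp1*, *Mmp7* and *Mmp13* had few counts in WT mice, which bears on theirs.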

How the data were processed

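The authors made poly(A) libraries from frozen liver and deposited raw read counts per gene, whole numbers without normalisation, for 54532 genes in 32 libraries. The submitters' processing notes name HISAT2 2.0.5, featureCounts 1.5.0-p3, DESeq2 1.20.0, GATK 4.1.1.0 and build mm10, and the annotation and strand setting were not given in the sources used here. The deposited table also holds FPKM values and the authors' own comparisons (fold changes and p-values), which were not used. The sources differ on when the diets began.

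Groups follow the sample labels, and each library was treated as 1 mouse, so p-values measure the spread between these samples. Members and gene lists were chosen with earlier results of these data known. Each pair of groups (8 libraries) was fitted with edgeR 4.0.16 in R 4.3.3 (filterByExpr, TMM, glmQLFit, glmQLFTest), with Benjamini-Hochberg adjustment over all genes tested and a call at adjusted p under 0.05 with a log2 difference beyond 1. Interactions used 16 libraries and adjusted p alone. The SE is the log2 difference over the square root of F, and nominal 95% intervals assume a normal spread. Levels are CPM with TMM over all libraries. An item of the marker lists is not reported here by name. The scripts were tested on simulated data. There the interaction fits found fewer of the known differences than fits of 2 groups did, and a first limit on that share, which they missed, was replaced after the fact by limits on sign, bias and wrong calls. Alternatives were DESeq2 1.42.0, size factors by median of ratios, library size only, no filter on low counts, a block for the replicate number, 1 fit over the 4 groups of a sex, and leaving out each library.

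Named genes are the 10 members, the 3 genes of each list with the smallest adjusted p in females (KO vs WT on chow), genes overlapping a member, the 3 genes most correlated with each member, and *Cyp2c70*. Over 48 pairs of libraries within groups the lowest chi-square per gene was 18.5, so no library was counted as a duplicate. Gene positions are the deposited ones.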

Additional observations from a re-analysis of the deposited data

Results flagged for a closer look

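Within 80 groups of 4 mice (10 genes in 8 groups), 8 held 1 mouse far from the other 3 by Dixon's criterion, where chance gives about 1 in 20. These were *Timp2* in male WT SC-435 replicate 2 (15.6 CPM), *Mmp7* in female WT chow replicate 3 (0.270 CPM), female WT SC-435 replicate 2 (0.0488 CPM) and male WT chow replicate 3 (0.05 CPM), *Mmp13* in male WT SC-435 replicate 2 (0.383 CPM), *Mmp14* in male WT chow replicate 1 (57.8 CPM) and male WT SC-435 replicate 4 (43.5 CPM), and *Loxl1* in female KO SC-435 replicate 1 (6.76 CPM). Of these, the *Mmp7* values rest on at most 11 counts. *Mmp14* in male WT chow replicate 1 comes from the library with the TMM factor of 0.639.

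The SC-435 difference in *Mmp13* was more negative in KO than in WT females, with an interaction of -2.85 on the log2 scale (SE 0.72, adjusted p = 0.0455 by edgeR). *Mmp13* reached the minimum of the filter on low counts in 0 of the 8 WT females.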

How the results depend on the processing

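Over the alternatives, single members kept side and direction in 1610 cases, lost a call in 74 and gained one in 26. Direction turned in 47 cases, none of them called before or after, such as *Mmp7* in the genotype by diet interaction of females (0.78 became -0.43). Counts of members that moved by over 1.5 times were as follows. Of 7 called higher in chow-fed KO females, 4 to 7 were called without 1 library. Of 5 lower with SC-435 in KO females, 3 were called with the replicate block and 3 to 6 without 1 library. Of 2 higher in KO females on SC-435, 1 was called with 1 fit over the 4 groups of the sex and 1 to 3 without 1 library. Of 2 higher in chow-fed KO males, 1 was called with library size only, 6 with DESeq2, 6 with the single fit of the sex, 0 with the replicate block and 0 to 5 without 1 library. Of 6 lower with SC-435 in KO males, 3 were called with the replicate block and 3 to 7 without 1 library. For the genotype by diet interaction, 1 in females became 0 to 2 without 1 library, and 0 in males became 2 with DESeq2, 1 with no filter and 0 to 1 without 1 library.

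Correlations of same-numbered mice ran from -0.16 to 0.16 over the 8 pairs of groups, and in no pair were all over 0.1, so the block marks no known pairing. In chow-fed males, where the block took 2 calls to 0, they ran from 0.04 to 0.16 and all 4 mice correlated best with their own number, a hint from the data and not the design.

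Counts over all genes moved too. With all libraries kept, in chow-fed KO females 919 higher became 790 to 1360 and 163 lower 119 to 262, and in males 145 became 15 to 794 and 21 became 2 to 163. With SC-435 in KO females 344 higher became 285 to 405 and 604 lower 408 to 929, and in males 301 became 204 to 339 and 730 became 420 to 1083. With library size only, the split with SC-435 in KO mice was 285 higher and 929 lower in females and 204 and 1083 in males. In WT mice on SC-435 108 higher and 65 lower in females became 76 to 159 and 50 to 102, and 2 and 4 in males became 0 to 93 and 0 to 40. Between genotypes on SC-435, 316 and 90 in females became 257 to 366 and 52 to 125, and 1 and 3 in males became 1 to 41 and 1 to 30. Interaction counts of 445, 15, 4 and 36 became 215 to 1205, 6 to 356, 0 to 77 and 6 to 339. Without 1 library, chow-fed KO females gave 632 to 1252 higher and 92 to 344 lower, and males 9 to 522 and 1 to 115. SC-435 in KO females then gave 256 to 586 higher and 325 to 919 lower, and in males 231 to 349 and 268 to 1080. In WT mice it gave 47 to 102 and 21 to 69 in females, and 1 to 105 and 0 to 55 in males. Between genotypes on SC-435 the counts were 226 to 341 and 45 to 109 in females, and 1 to 6 and 2 to 8 in males. Interactions gave 68 to 1644, 2 to 118, 0 to 75 and 6 to 185. Of those, 344, 586, 919, 1644 and 185 were without female KO chow replicate 4, 92 and 325 without female KO chow replicate 2, 68 without female KO SC-435 replicate 2, 268 without male KO SC-435 replicate 4, 9 without male WT chow replicate 3, and 522, 115, 105, 55, 118 and 75 without male WT chow replicate 1. The causes were not tested, and without composition scaling the all-gene median shifted by 0.19 in females and 0.25 in males on chow.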
